A study of Mus musculus with 9 samples.

Results

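Notch signalling in bone marrow stroma was followed through 9 genes: the ligand genes Jag1, Jag2, Dll1 and Dll4, the receptor genes Notch1, Notch2 and Notch4, and the target genes Hes1 and Hey1. They were chosen by name, and all 9 were represented among the 18194 genes of the array, by 17 probe sets in all. Where a gene had several probe sets, the main one was that with the highest mean signal over the 9 arrays. RNA came from FVB/NJ bone marrow cells that carried neither CD45.1, an allelic form of the pan-leukocyte protein CD45, nor Ter119, which marks red cell precursors, in the sort. There were 3 groups of 3 arrays, labelled as biological replicates: wild type mice (WT), leukemic recipients at an early phase (E), with a marrow share of leukemic cells of 1 to 5%, and leukemic recipients at a medium phase (M), with a share of 5 to 50%. A latent and a late phase are not analysed here. The kind of leukemia, its driver gene, the age of the mice and whether WT mice had received cells or conditioning are not given in the sources used here. The values are log2 MAS5 signals of Affymetrix 3' expression arrays.

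Notch receptors are single-pass membrane proteins that are switched on by ligands of the Jagged and Delta-like families on a neighbouring cell. Binding lets an ADAM protease and then the gamma-secretase complex cut the receptor, and the freed intracellular part enters the nucleus, where it joins the DNA-binding protein Rbpj and coactivators of the Mastermind family to switch on genes such as Hes1 and Hey1. In bone marrow, Jag1 is made by endothelial and mesenchymal stromal cells, Dll4 and Notch4 are best known from endothelium, and ligand from stroma acts on blood stem cells and on lymphoid precursors.

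The M arrays stood apart from the rest. Pairs of arrays differed over all genes by a root mean square of 1.06 to 1.1 within E, 1.07 to 1.1 within WT and 0.968 to 1.02 within M, and by 1.07 to 1.17 between E and WT. Between M and WT the range was 1.54 to 1.75. The median signal of all probe sets was 5.60 to 5.68 in WT arrays, 5.43 to 5.60 in E arrays and 6.24 to 6.28 in M arrays, although every array had been scaled to the same trimmed mean. The mean of the 24 poly-A spike-in probe sets, which read RNA mixed in as a control, was 9.73 to 10.3 in M, against 8.84 to 9.15 in WT. That is a log2 difference of 1.00, with a two-sided exact permutation p of 0.1, the smallest possible with so few arrays. In E it was 8.84 to 9.06. Of 10 marker genes of mesenchymal niche cells, all 10 were higher in M than in WT. Of all genes, 22.2% were called higher and 21.1% lower in that comparison. The summed linear signal of the 10 niche markers was 1340 to 1580 in WT, 1370 to 1520 in E and 26100 to 30700 in M. All 6 pan-leukocyte markers had signals above the array median in WT, E and M, although the cells had been sorted without CD45.1. They too were all higher in M than in WT (median log2 difference 1.33), with summed signals of 4150 to 4640 in WT, 2970 to 3170 in E and 8210 to 14900 in M. Erythroid signal was high as well, although the sort excluded Ter119. The 6 measured erythroid markers summed to 45100 to 51300 in WT, 37700 to 40400 in E and 24100 to 53000 in M. Between M and WT, 0 of them were higher, 2 were lower and 4 did not pass. The part of these cells in the differences between groups was not tested. In such bulk RNA, fewer cells of a type and less RNA per cell cannot be told apart.

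In the medium phase, 5 of the 9 Notch genes rose above WT, 0 fell and 4 did not pass the test. The ligand Jag1 rose 14.9-fold, the targets Hes1 and Hey1 8.84-fold and 7.19-fold, the receptor Notch1 2.91-fold and the ligand Dll1 2.81-fold. Jag2, Dll4, Notch2 and Notch4 did not pass. The M and WT arrays did not overlap in the same 5 genes, where 28.3% of all genes were higher in M without overlap. Among all genes, 22.2% were called higher in M than in WT and 21.1% lower (limma, Benjamini-Hochberg adjusted p under 0.05 over all 18194 genes). The median log2 difference of the 9 genes was 1.49, beside 0.11 over all genes. In the early phase 0 of the 9 passed in either direction.

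**Figure D1:**
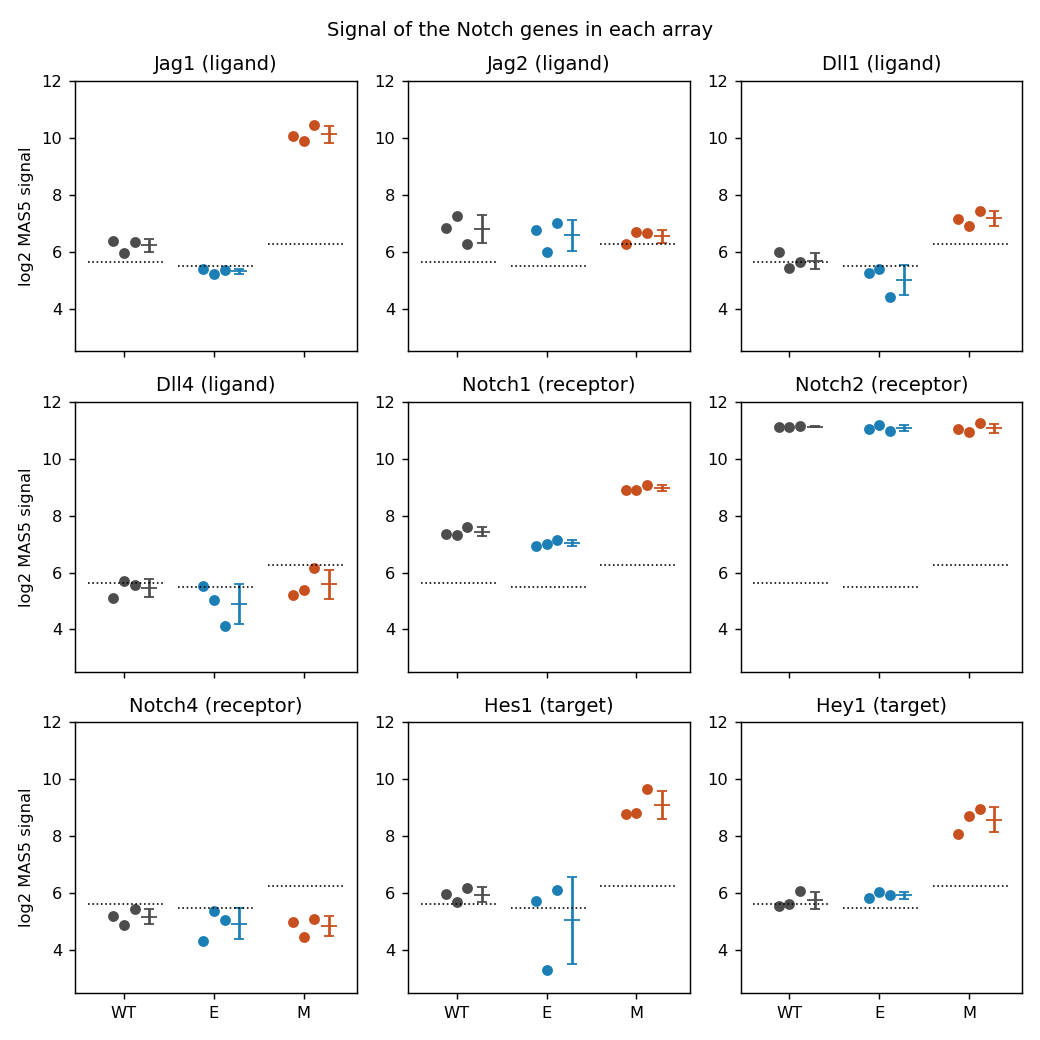
Log2 MAS5 signal (vertical axis) of the main probe set of each Notch gene in the WT, E and M arrays. Dots are arrays 1, 2 and 3 of a group from left to right, the bar beside them is the mean with its SD (n = 3), and the dotted line is the mean over the group's arrays of the median of all probe sets. Jag1, Dll1, Notch1, Hes1 and Hey1 have all M arrays above all WT and E arrays.

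Among the ligands, Jag1, the Jagged family member through which marrow stroma is known to act on blood stem cells, changed most. Its main probe set read 6.37, 5.97 and 6.35 in WT replicates 1, 2 and 3, and 5.38, 5.22 and 5.35 in the E replicates. In M it read 10.06, 9.88 and 10.45. All M arrays lay above every other array, and all E arrays lay below every WT array and below the median of all probe sets on their own array. M was above WT by 3.90 ± 0.21 SE (log2, 95% interval 3.44 to 4.37, limma adjusted p = 2.85e-08), from means of 10.13 ± 0.29 in M and 6.23 ± 0.23 in WT (SD, n = 3 each). Only 2.5% of all genes had a larger log2 difference in that comparison.

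Dll1, a Delta-like ligand that favours T lineage fate when given to blood precursors, read 5.98, 5.44 and 5.65 in WT, 5.26, 5.40 and 4.42 in E, and 7.17, 6.91 and 7.45 in M. Its M arrays were above all others. Its WT arrays lay close to the median of all probe sets, with 2 of 3 above it. In E 0 of 3 arrays were above it, and E replicate 3 lay well below (4.42 against an array median of 5.60). The difference between M and WT was 1.49 ± 0.36 SE (log2, limma adjusted p = 0.00484), and it did not pass after quantile normalization (0.87, adjusted p = 0.088), after centring on the median (0.86, adjusted p = 0.0828) or after scaling on the spike-ins (0.49, adjusted p = 0.407). Over the 20 alternatives that included Dll1, its adjusted p ran from 0.000626 to 0.407.

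Jag2, the other Jagged ligand, did not pass and its groups overlapped. Its main probe set read 6.82, 7.26 and 6.29 in WT, 6.75, 5.98 and 7.03 in E, and 6.29, 6.70 and 6.67 in M. The difference between M and WT was -0.24 (log2, 95% interval -0.97 to 0.50, limma adjusted p = 0.626). That interval leaves room for a change of nearly 1 log2 unit downward. With the 3 other scalings of the arrays (quantile, median and spike-in), Jag2 passed as lower in M, at -0.87, -0.86 and -1.24 (adjusted p = 0.0467, 0.0401 and 0.00939). Relative to the median gene of the same comparison, Jag2 stood at -0.69, -0.35 and -0.35 under these scalings, and at -0.35 as deposited. Over its 20 alternatives the adjusted p ran from 0.00939 to 1.

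Dll4, a Delta-like ligand of endothelium, read 5.09, 5.69 and 5.56 in WT, 5.53, 5.04 and 4.14 in E, and 5.20, 5.40 and 6.17 in M. The groups overlapped, and 0 of 3 M arrays were above the median of all probe sets on their own array. The difference between M and WT was 0.14 (log2, 95% interval -0.91 to 1.19, limma adjusted p = 0.85). With the values as deposited, that interval leaves room for a change of about 1 log2 unit either way. The difference turned to -0.45, -0.49 and -0.86 after quantile, median and spike-in scaling. Relative to the median gene of the same comparison, Dll4 stood at -0.27, 0.03 and 0.03 there, and at 0.03 as deposited.

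Of the receptors, Notch1, which drives T lineage fate in blood precursors and acts in endothelium, rose in M. Its main probe set read 7.37, 7.32 and 7.61 in WT, 6.95, 6.99 and 7.14 in E, and 8.91, 8.91 and 9.09 in M. The 3 groups did not overlap, with E lowest and M highest. M averaged 8.97 ± 0.10 and WT 7.43 ± 0.16 (SD, n = 3 each), a difference of 1.54 ± 0.15 SE (log2, limma adjusted p = 5.53e-06). The call was lost with the arrays scaled on the spike-ins (0.54, adjusted p = 0.0977), the highest of its 21 alternatives, whose lowest adjusted p was 1.84e-06.

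Notch2, the receptor that marginal zone B cells require, did not pass with the values as deposited. It read 11.13, 11.12 and 11.15 in WT, 11.06, 11.18 and 10.96 in E, and 11.03, 10.95 and 11.25 in M. The groups overlapped and lay far above the array medians, and the difference between M and WT was -0.06 (log2, 95% interval -0.25 to 0.13, limma adjusted p = 0.644). Its direction followed the scaling: it was 0.04 after quantile normalization (adjusted p = 0.799), -0.69 after median centring (adjusted p = 8.12e-05) and -1.06 after spike-in scaling (adjusted p = 9.91e-06). Over its 22 alternatives the adjusted p ran from 9.91e-06 to 0.975. Notch2 lay 0.17 below the median gene of the same comparison with the values as deposited and 0.22 above it after quantile normalization.

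Notch4, a receptor of endothelium, had low signals. Its main probe set read 5.20, 4.90 and 5.45 in WT, 4.34, 5.39 and 5.06 in E, and 4.99, 4.46 and 5.10 in M, and 0 of 3 arrays in any group exceeded the median of all probe sets. Of its other probe sets, 1 read above that median in 1 M array (6.30). The difference between M and WT was -0.33 (log2, 95% interval -1.37 to 0.70, limma adjusted p = 0.626).

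Upstream sequence was available for 7 of the 9 genes in RefSeq promoter windows (GRCm38.p6). The target genes Hes1 and Hey1 had no window, so no motif was sought in them. The 250 bases before the annotated start are shown for Jag1 and Notch1, which rose in M, and for Notch2, which did not pass, with GC boxes (GGGCGG or its reverse complement CCGCCC) in capitals. The Jag1 window is chr2:137116521-137116770 on the minus strand, that of Notch1 chr2:26503823-26504072 on the minus strand, and that of Notch2 chr3:98013288-98013537 on the plus strand.
Jag1: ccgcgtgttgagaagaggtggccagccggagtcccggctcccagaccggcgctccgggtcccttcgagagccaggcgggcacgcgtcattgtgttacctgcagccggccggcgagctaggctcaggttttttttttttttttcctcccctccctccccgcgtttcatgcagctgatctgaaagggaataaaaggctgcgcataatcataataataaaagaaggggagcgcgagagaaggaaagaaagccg
Notch1: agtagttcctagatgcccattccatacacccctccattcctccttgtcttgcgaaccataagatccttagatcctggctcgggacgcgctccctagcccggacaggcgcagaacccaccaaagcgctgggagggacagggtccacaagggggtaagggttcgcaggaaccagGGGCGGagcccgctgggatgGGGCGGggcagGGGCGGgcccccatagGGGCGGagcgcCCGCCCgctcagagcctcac
Notch2: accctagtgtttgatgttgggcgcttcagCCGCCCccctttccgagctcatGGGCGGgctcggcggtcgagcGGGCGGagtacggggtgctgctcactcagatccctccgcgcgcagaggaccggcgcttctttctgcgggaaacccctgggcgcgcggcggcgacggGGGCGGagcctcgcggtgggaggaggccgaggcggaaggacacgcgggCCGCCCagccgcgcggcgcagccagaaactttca
Notch1 and Notch2 each held 5 GC boxes and Jag1 held 0, and Jag1 and Notch1 both rose. Jag2 also held 5 and Dll4 2, while Notch4 and both windows of Dll1 held 0. Over 32851 windows of this length, 32.7% held a GC box. The Rbpj core motif TGGGAA (or TTCCCA), found in 21.6% of all windows, was in 0 of the 8 windows of these 7 genes. That says nothing about Hes1 and Hey1, which were not scanned. The palindromic motif CACGTG, which Hes and Hey family repressors can bind, was in 0 of 8, against 6.02% of all windows. A missing match says only that the letters are not in these windows.

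Both target genes rose in M. Hes1, a basic helix-loop-helix repressor that is a direct target of Notch in many tissues, read 5.98, 5.68 and 6.20 in WT, 5.74, 3.32 and 6.11 in E, and 8.79, 8.82 and 9.68 in M. All M arrays were above all others, and E replicate 2 lay far below the rest. In WT, 2 of 3 arrays were above the median of all probe sets on their own array. M averaged 9.10 ± 0.50 and WT 5.95 ± 0.26 (SD, n = 3 each), a difference of 3.14 ± 0.58 SE (log2, limma adjusted p = 0.000712).

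Hey1, a related repressor known as a Notch target in vessels and in bone, read 5.54, 5.61 and 6.08 in WT, 5.82, 6.06 and 5.93 in E, and 8.09, 8.71 and 8.97 in M. Again the M arrays stood above all others, and WT and E overlapped. Of the WT arrays, 1 of 3 was above the median of all probe sets on its own array. The difference between M and WT was 2.85 ± 0.28 SE (log2, limma adjusted p = 4.85e-06). Of all genes, 5.15% had a larger difference than Hes1 and 6.58% a larger one than Hey1. The calls of Jag1, Hes1 and Hey1 in this comparison held under every alternative that included them, with the largest adjusted p at 1.92e-05 for Jag1, 0.0105 for Hes1 and 0.000193 for Hey1. For Jag1 these included the filter at a mean signal of 6.83. It passed that filter only through its M arrays, so that fit adds no support.

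**Figure D2:**
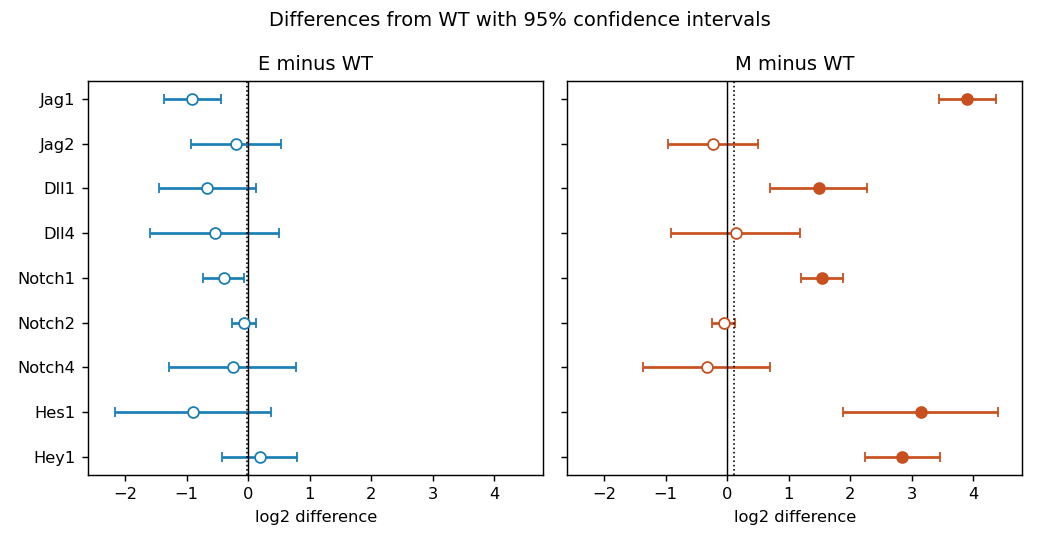
Log2 difference of each Notch gene from WT (horizontal axis) with its 95% confidence interval from limma, for E on the left and M on the right. Filled circles passed at an adjusted p under 0.05, open ones did not, and the dotted line is the median of all genes (-0.02 for E and 0.11 for M). No gene passed for E, and Jag1, Dll1, Notch1, Hes1 and Hey1 passed for M.

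Replicate 3 gave the highest of the M values for 8 of the 9 genes, the exception being Jag2, where over all genes it was the highest in 39.4%. It also differed from M replicates 1 and 2 in cell markers. The erythroid gene Alas2 read 8.50 in it, against 11.74 and 11.58. Slc4a1, Klf1 and Ermap were also lowest there, while Epor and Hba-a1 were not. Each pan-leukocyte marker was highest there, such as Ptprc (11.17 against 10.50 and 10.25). The part of this in the Notch values was not tested. Without M replicate 3 the same count of 5 genes passed in M with WT, and leaving out any other single array also gave 5. Over these 9 fits the log2 difference was 3.74 to 4.02 for Jag1, 2.85 to 3.29 for Hes1, 2.65 to 3.10 for Hey1, 1.48 to 1.63 for Notch1 and 1.35 to 1.63 for Dll1.

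In the early phase 8 of the 9 differences from WT were below 0 with the values as deposited. With limma, 0 of the 9 genes passed between E and WT, where 0.852% of all genes passed, and 2 of the 9 (Jag1 and Notch1) had an unadjusted p under 0.05, where 10.7% of all genes had one. The median log2 difference of the 9 was -0.40, beside -0.02 over all genes. The E and WT arrays did not overlap in 3 genes, Jag1, Dll1 and Notch1, all lower in E, and 11.3% of all genes were lower in E without overlap.

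Jag1 came nearest to a call. It averaged 5.32 ± 0.09 in E and 6.23 ± 0.23 in WT (SD, n = 3 each), a difference of -0.91 ± 0.21 SE (log2, limma adjusted p = 0.0849). It passed as lower in E with array weights (adjusted p = 0.0269), without M replicate 3 (0.041) and when genes with a mean signal under 6.83 were left out (0.0437). Jag1 got through that filter only by its M arrays, since its WT and E means were both below it. Over its 21 alternatives the adjusted p ran from 0.0269 to 0.551. Notch1 averaged 7.03 ± 0.10 in E and 7.43 ± 0.16 in WT (SD, n = 3 each), a difference of -0.40 ± 0.15 SE (adjusted p = 0.355), and Dll1 differed by -0.67 (adjusted p = 0.565). For Hes1 the interval was wide (-2.16 to 0.37), with E replicate 2 at 3.32, and without that array its difference was -0.03 in place of -0.90. Hey1 alone had a difference above 0 (0.19, adjusted p = 0.859).

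Between the phases, the genes higher in M than in E were again Jag1, Dll1, Notch1, Hes1 and Hey1, 5 of 9, where 24.1% of all genes were called higher and 21.4% lower. This comparison shares its M arrays with the one against WT, so its values are given only side by side. M was above E by 4.81 for Jag1, 4.04 for Hes1, 2.66 for Hey1, 2.15 for Dll1 and 1.94 for Notch1 (log2, limma adjusted p from 3.36e-09 for Jag1 to 0.000326 for Dll1). Without E replicate 2, the low array for Hes1, its difference of M from E was 3.175. For these genes the differences of M from WT were 3.90, 3.14, 2.85, 1.49 and 1.54.

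Several of the genes had further probe sets, which were tested in a fit over all 34958 probe sets with a single gene symbol. Of the 17 probe sets of the Notch genes, 7 were higher in M than in WT and 0 lower, where 18.5% of all probe sets were higher and 16.7% lower. For Jag1 the other probe sets differed by 2.68 (log2, limma adjusted p = 8.41e-05) and 0.43 (adjusted p = 0.469), so 2 of its 3 probe sets passed. For Notch1 the other probe set, close to the array median, differed by 0.41 and did not pass (adjusted p = 0.431).

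For Jag2 it was the dimmer probe set that passed, higher in M, at 5.52, 5.24 and 5.28 in M and 2.84, 3.98 and 2.65 in WT (difference 2.19, limma adjusted p = 0.039), with all 6 values under the median of their arrays. The main Jag2 probe set differed by -0.24. The dimmer probe sets of Notch4 differed by 2.80 and 1.04 (limma adjusted p = 0.111 and 0.278) and that of Dll4 by 0.75 (adjusted p = 0.6), and none passed. When each gene was taken as the mean of its probe sets, the M with WT difference of Jag2 was 0.98 (adjusted p = 0.139) and that of Notch4 1.17 (adjusted p = 0.157), each opposite in sign to the main probe set.

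**Figure D3:**
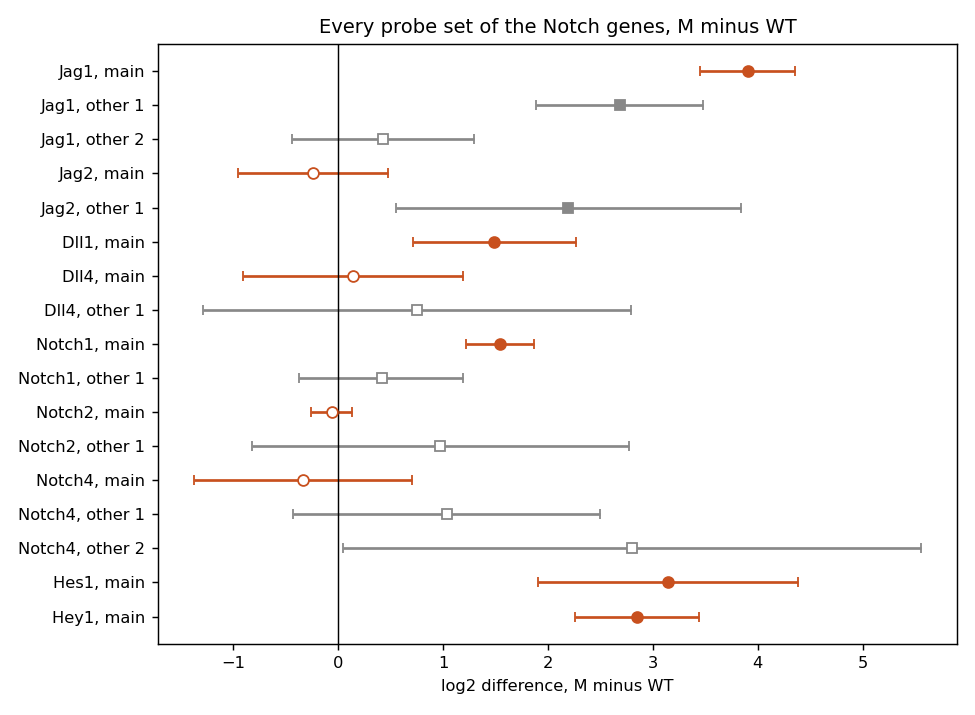
Log2 difference, M minus WT (horizontal axis), of all 17 probe sets with 95% confidence intervals from limma. Circles are the main probe sets and grey squares the others, and filled symbols passed at an adjusted p under 0.05 over all probe sets. For Jag1 2 of 3 probe sets passed, and for Jag2 the dimmer one alone.

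Other parts of the pathway were read from a list of 50 genes, of which 47 were measured. Between M and WT, 12 rose, 6 fell and 29 did not pass (22.2% of all genes rose and 21.1% fell), and their median log2 difference was 0.19, beside 0.11 over all genes. The split depended on scaling: 12 rose and 9 fell after quantile normalization, 7 and 22 after median centring, and 5 and 28 after spike-in scaling. Over all genes the shares higher and lower were 17.1% and 26.2%, 13.4% and 38.5%, and 10.1% and 44.1% under these scalings. Those that rose as deposited were 2 of 5 other receptors and ligands, 2 of 4 genes of ligand endocytosis, 3 of 8 genes of the nuclear complex, 3 of 8 endocytic and ubiquitin regulators, 1 of 7 genes of receptor cleavage and 1 of 5 other targets. Of 5 genes of sugar modification 0 rose and 1 fell, and of 5 corepressors 0 rose and 2 fell.

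Notch3, the receptor of vascular smooth muscle and pericytes, rose the most of those named. It read 5.98, 6.21 and 6.07 in WT, 6.59, 6.12 and 5.66 in E, and 9.68, 9.41 and 9.28 in M, a difference between M and WT of 3.37 ± 0.25 SE (log2, limma adjusted p = 3.66e-07). Its M arrays were above all others. Its dimmer probe set differed by 1.63 and did not pass (adjusted p = 0.221). Alongside, the summed linear signal of 7 pericyte and smooth muscle markers was 417 to 464 in WT, 325 to 338 in E and 3510 to 6530 in M, and the part of these cells in the result was not tested.

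Heyl, a Hey family target, rose by 2.22 (log2, limma adjusted p = 0.00701, and 0.053 with spike-in scaling), and Dtx4, an E3 ubiquitin ligase of the Deltex family, by 2.69 (adjusted p = 0.000129). The WT means of Heyl and Dtx4 were low, at 5.35 and 5.66, beside WT array medians of 5.60 to 5.68. Rbpj, the DNA-binding partner of the cut receptor, averaged 10.60 ± 0.21 in M and 10.06 ± 0.05 in WT (SD, n = 3 each, difference 0.54, adjusted p = 0.000908), but its difference was -0.09 after median centring and -0.46 after spike-in scaling. Relative to the median gene, Rbpj stood at 0.43 under these scalings and as deposited, and at 0.72 after quantile normalization. Nrarp, a feedback inhibitor of Notch, did not pass (0.05, adjusted p = 0.831), and its difference was -0.39, -0.58 and -0.95 after quantile, median and spike-in scaling. Relative to the median gene, Nrarp stood at -0.21, -0.06 and -0.06 there, and at -0.06 as deposited.

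Among those that fell was Psen2, a catalytic subunit of gamma-secretase, with 8.81, 8.71 and 8.87 in M and 10.02, 10.03 and 10.18 in WT. The groups did not overlap, and the difference was -1.28 ± 0.09 SE (log2, limma adjusted p = 2.04e-07). Its dimmer probe set differed by 1.28 the other way without passing (adjusted p = 0.336), and the mean of both probe sets gave a difference of 0 (adjusted p = 1). Rfng, a sugar transferase that modifies Notch, fell by 0.60 (log2, limma adjusted p = 0.000228). Snw1, a transcription and splicing cofactor, fell by 0.46 (adjusted p = 8.7e-05) and Ctbp1, a corepressor, by 0.57 (adjusted p = 6.92e-05). Adam10, the protease that makes the first cut, and Lfng, a sugar transferase, did not pass (-0.21 and 0.06, adjusted p = 0.0917 and 0.87), and Lfng was at -0.53, -0.57 and -0.95 under the same 3 scalings. Relative to the median gene, Lfng stood at -0.35, -0.06 and -0.06 there, and at -0.06 as deposited. Between E and WT, 1 of the 47 passed as lower, where 0.693% of all genes did: Kat2b, an acetyltransferase that works with the nuclear complex. It fell by 0.49 in E (limma adjusted p = 0.00437), a call lost with median centring (adjusted p = 0.0786), spike-in scaling (0.606) or no intensity trend (0.114), within a range of 0.00025 to 0.606 over its 22 alternatives. Between M and E, 14 of the 47 rose and 7 fell, where 24.1% of all genes rose and 21.4% fell, and Kat2a, a related acetyltransferase, was among those that fell (-0.81, limma adjusted p = 1.57e-05).

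**Figure D4:**
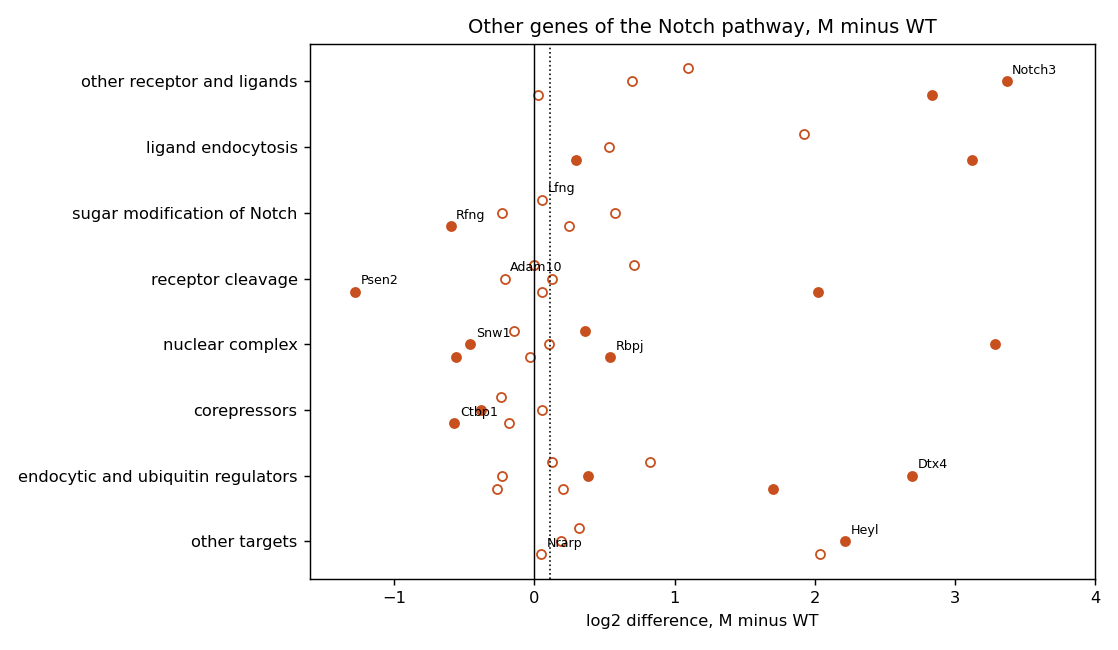
Log2 difference, M minus WT (horizontal axis), of the 47 measured other pathway genes, grouped by role from top to bottom. Filled circles passed at an adjusted p under 0.05, the dotted line is the median of all genes (0.11), and most of the genes described in the text are named. Notch3 lies farthest to the right and Psen2 farthest to the left.

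Profiles most like those of the 5 genes that rose were sought among the genes at or above the median mean signal, by the root mean square difference of values centred on each gene's own mean over the 9 arrays. Nearest to Jag1 were Col6a2, a chain of collagen VI (0.122), and Ackr3, a scavenging receptor for Cxcl12 (0.143). Nearest to Hey1 were Cemip, a hyaluronan-degrading factor (0.112), and Col9a2, a cartilage collagen (0.137). Notch1 was nearest to Man1a, a mannosidase (0.125), and Slc13a5, a citrate transporter (0.134), and Dll1 to Slc1a4, an amino acid transporter (0.217), and Wasl, an actin regulator (0.22). For Hes1 the nearest, Csrnp1 (0.345) and the interleukin-1 receptor gene Il1r1 (0.427), were less close. The 9 arrays fell into M and the rest, so each distance rests largely on 1 gap. The filter, a mean over all 9 arrays of at least 6.83, also admitted genes only through M. Cemip averaged 6.12 in WT, 6.27 in E and 8.95 in M, and Col9a2 6.75, 6.82 and 9.63.

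Markers of several cell types were read beside the Notch genes. Of 15 endothelial markers, 11 were higher in M than in WT, 2 lower and 2 did not pass, where 22.2% of all genes were higher and 21.1% lower. Of these markers, 0 were at 0 in any array. Their summed linear signal, in which the brightest markers weigh most, was 1880 to 2040 in WT, 2060 to 2280 in E and 3350 to 4520 in M. Their mean log2 signal was 5.83 to 6.07 in WT, 5.61 to 5.83 in E and 7.31 to 7.76 in M. Between E and WT 0 of the 15 passed, where 0.852% of all genes did, and their median log2 difference was -0.32. Of the 3 brightest, Cldn5, a tight junction protein, was higher (1.64, limma adjusted p = 0.000184, and 0.102 with spike-in scaling), while Eng, a TGF-beta coreceptor, and Egfl7, a secreted vessel protein, were lower (-0.35 and -0.83, adjusted p = 0.00842 and 0.000522). Among mesenchymal niche markers, the chemokine gene Cxcl12, the PDGF receptor gene Pdgfrb and the leptin receptor gene Lepr were higher in M by 4.17, 5.53 and 5.19 (adjusted p = 6.61e-12, 2.03e-10 and 2.98e-09). Chondrocyte markers summed to 21300 to 25100 in WT, 12200 to 12800 in E and 80200 to 86700 in M, and granulocyte markers to 8390 to 9230, 11200 to 12500 and 89900 to 109000. The part of these cells in the rise of Jag1, Dll1, Notch1, Hes1 and Hey1 was not tested.

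The size of the M with WT differences depended on how the arrays were scaled. The median difference over all genes was 0.11 with the values as deposited, -0.18 after quantile normalization, -0.51 after median centring and -0.89 after spike-in scaling. Relative to that median, Jag1 stood at 3.79, 3.86, 3.79 and 3.79 in the same order, Hes1 at 3.03, 3.00, 3.03 and 3.03, and Hey1 at 2.73, 2.61, 2.73 and 2.73. Notch1 stood at 1.43, 1.41, 1.43 and 1.43, and Dll1 at 1.38, 1.05, 1.38 and 1.38. Median centring and spike-in scaling move all genes of an array by 1 constant, so these positions cannot change with them, and quantile normalization alone could move them.

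**Figure D5:**
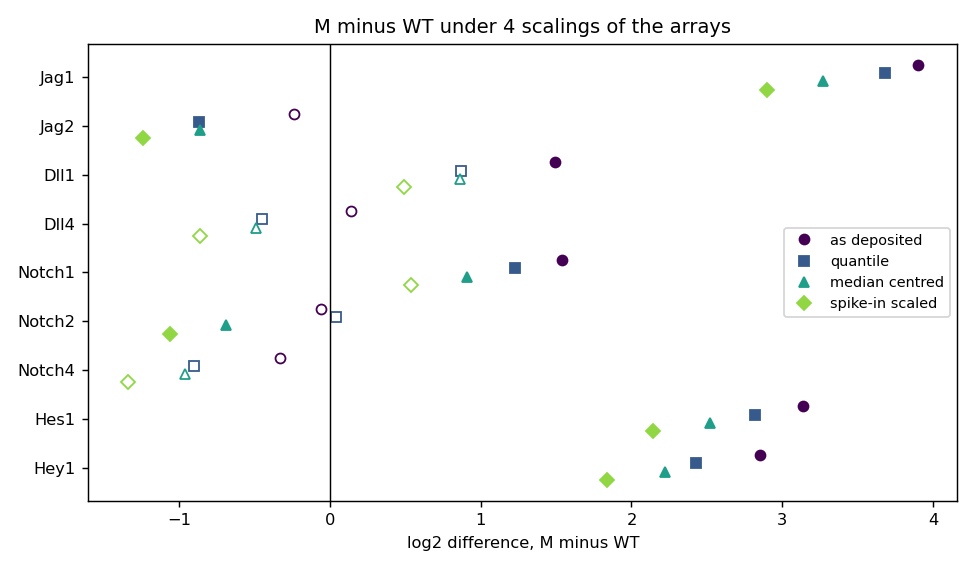
Log2 difference, M minus WT (horizontal axis), of each Notch gene with the values as deposited and under 3 other scalings of the arrays. Filled symbols passed at an adjusted p under 0.05. Jag1, Hes1 and Hey1 are filled and above 0 under all 4 scalings, while Dll4 and Notch2 change side.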

How the data were processed

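The values were the authors' deposited log2 signals, one per probe set and array, made with MAS5 per the submitters' processing notes. Its version and target scale are not given in the sources used here. RNA was labelled with a 3' kit per the labels' protocols. No detection calls were used, so a low signal is described against the median of its array.

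Values were used as deposited. Of 45101 probe sets, 34958 carried 1 gene symbol in the platform annotation and stood for 18194 genes, each by its brightest probe set. The 3 comparisons were fitted over all 9 arrays in limma 3.58.1 (R 4.3.3), with an intensity trend and Benjamini-Hochberg adjustment over all genes, called under 0.05. No filter on signal was applied, since a filter on the mean over all arrays admits genes through the group where they are high and would leave 6 of the 9 genes untested. P-values measure the spread between arrays labelled biological replicates.

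Genes and lists were chosen with earlier results of these data known. Other genes named were the called pathway genes with the smallest p (at most 6 a comparison), a fixed set of pathway genes, the 3 brightest of marker lists and the 2 nearest profiles. Data were simulated with 18194 genes, of which 200 were changed. There M with WT recovered 39.8% of log2 changes of 1 and 57.2% of changes of 2 at 4.5 false calls per simulation. E with WT recovered 39.6% and 57.6% at 5.3 false calls. In the data themselves 7880 genes were called in M with WT, so the simulated rates cannot be carried over to that comparison. The number of arrays limits the precision.

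Alternatives were filters on dim genes, quantile normalization, median centring, spike-in scaling, pseudocounts of 16 and 64, other variance models, the mean of a gene's probe sets, fits of 2 groups, a replicate block and leaving out each array. Same-numbered arrays did not deviate together (correlations of deviations from -0.03 to 0.024), so the numbers were not taken as pairs.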

Additional observations from a re-analysis of the deposited data

How the results depend on the processing

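Of the 9 genes, 3 were at or above the median mean signal and 1 also passed the strictest filter, so these filters tested fewer genes. With the median filter 1 of the 3 genes was called in E with WT (Jag1), 2 in M with WT and 2 in M with E (Jag1 and Notch1). Over all genes at or above that filter, 0.462% were called higher and 1.65% lower in E with WT. The shares were 25.3% and 43.5% in M with WT, and 26.1% and 43.9% in M with E. Jag1 passed that filter only through its M arrays, so its calls there are no support in any of the 3 comparisons. With the strictest filter there were 0 calls in M with WT and 0 in M with E. Of all genes it kept, 15.3% were called higher and 60.8% lower in M with WT, and 16.3% and 60.3% in M with E. Array weights gave 1 call in E with WT (Jag1), and leaving out single arrays gave 0 to 1 there, 5 in M with WT and 5 in M with E. Total counts under the other alternatives were within 1.5 times, but their make-up changed: M with WT had 4 higher and 1 lower after quantile normalization, 4 and 2 after median centring and 3 and 2 after spike-in scaling, against 5 and 0 as deposited, and M with E had 5 and 1 after median centring and 5 and 2 after spike-in scaling. Over all genes, 155 calls in E with WT became 57 without an intensity trend, 85 with the strictest filter, 91 with the mean of probe sets, 92 with spike-in scaling, 382 with array weights, 515 with only both groups fitted, and 92 to 617 without single arrays, the highest without M replicate 3. In M with WT, 4032 genes were higher and 3848 lower as deposited, against 3107 and 4775, 2440 and 6998, and 1842 and 8023 after quantile, median and spike-in scaling. In M with E, 4382 were higher and 3892 lower, against 3200 and 4850, 2452 and 7388, and 2041 and 7917. With the replicate block, 0, 5 and 5 genes were called in the 3 comparisons, so the block changed no count, and since the numbers do not pair the arrays it was not used further.

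Signs turned mainly for genes that did not pass as deposited. In M with WT, Dll4 was at -0.45, -0.486 and -0.86 after quantile, median and spike-in scaling and at -0.054 with array weights, and Notch2 at 0.036 after quantile normalization. In M with E, Dll4 was at -0.045, -0.077 and -0.349 under the same scalings, and Notch2 at -0.756 and -1.028 after median and spike-in scaling and -0.057 with array weights. Median centring put Notch2 at 0.069 in E with WT. With the mean of a gene's probe sets, Dll4, Notch2 and Notch4 were at 0.435, 0.173 and 0.101 in E with WT, Jag2, Notch2 and Notch4 at 0.978, 0.458 and 1.168 in M with WT, and Jag2 and Notch4 at 1.505 and 1.067 in M with E. Calls of Jag2 in M with E thus went both ways, higher with the mean of probe sets (adjusted p = 0.0258) and lower with spike-in scaling (-1.066, adjusted p = 0.0249), within a range of 0.0249 to 0.958 over 20 alternatives. Of other pathway genes in M with WT, Lfng was at -0.527, -0.572 and -0.946 and Nrarp at -0.387, -0.578 and -0.952 under the 3 scalings, Rbpj at -0.089 and -0.463 under the last 2, and Psen2, Adam10 and Lfng at 0, 0.076 and -0.434 with the mean of probe sets. Median centring and spike-in scaling moved all genes of an array by 1 constant, so positions relative to the median gene did not change. In M with WT, Dll4 stayed at 0.03, Notch2 at -0.17 and Rbpj at 0.43 from the median gene. Jag2 stayed at -0.22 from it in M with E. The mean of probe sets took in dimmer probe sets, such as those of Jag2, Notch4 and Psen2 given above. Causes of the remaining turns were not tested.

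Without single arrays, Jag2 lay between -0.456 and 0.097 and Notch4 between -0.486 and 0.042 in E with WT. In M with WT the ranges were -0.487 to 0 for Jag2, -0.147 to 0.334 for Dll4, -0.146 to 0.005 for Notch2, -0.117 to 0.196 for Lfng and -0.079 to 0.175 for Nrarp. In M with E they were -0.334 to 0.19 for Jag2, -0.079 to 0.071 for Notch2 and -0.376 to 0.152 for Notch4. Signals near or below the array median, as for Dll4 and Notch4, limit what can be detected.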
